A study of Mus musculus with 12 samples.

Results

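The quantity described here is a difference between differences: the change from control to Jarid2-aMHC hearts at 7 months minus the same change at postnatal day 10 (P10), taken on the log2 scale for each gene and called the interaction below. All 12 of the 12 RNA-seq libraries of the series enter it, 3 in each of 4 groups, and 15478 gene rows were tested. Every animal carried floxed Jarid2 on both chromosomes (Jarid2 f/f), on a mixed 129/Svj and C57BL/6 background. Controls were aMHC +/+ and Jarid2-aMHC animals, called mutants below, were aMHC C/+, and the letter C is taken to stand for Cre, driven in heart muscle cells by the promoter of alpha myosin heavy chain. P10 controls and P10 mutants were sampled at day 10, and the other 2 groups at 7 months. No group carried the aMHC C allele without floxed Jarid2, so an effect of that allele by itself and an effect of Jarid2 loss cannot be told apart.

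Jarid2 is a cofactor of Polycomb repressive complex 2 (PRC2), a histone methyltransferase that keeps developmental genes silent. In dilated cardiomyopathy, which the series title names, the ventricles widen and pump weakly. A failing ventricle typically makes natriuretic peptides, lays down matrix and turns down the oxidation of fatty acids. The interaction asks which of these genes responded differently to the mutant genotype in the young and in the adult heart. A positive interaction means that the mutant stood higher against its own control at 7 months than at P10, and a negative one means the reverse. Each can arise from a response at 7 months, from a response at P10, or from responses of opposite sign.

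In all, 1454 rows were called (edgeR quasi-likelihood test, Benjamini-Hochberg adjusted p under 0.05), which is 9.39% of those tested. Of these, 756 (4.88%) had a positive and 698 (4.51%) a negative interaction. At the same threshold 2949 rows (19.1%) were called between mutants and controls at 7 months and 9 rows (0.0581%) at P10. The median interaction was 0.02 over all rows tested, 1.01 over the positive calls and -0.82 over the negative ones. Coding rows made up 1394 of the calls, non-coding rows 57 and mitochondrially encoded rows 3.

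In 11 libraries the depth was 37624029 to 52926776 estimated counts, and P10 control 2 held 241424, which is 183 times fewer than the median of the others. A single read of P10 control 2 is worth 3.33 CPM (counts scaled to the library size of the test), against 0.0178 to 0.0294 CPM in the deep libraries, so that its values for low genes come in steps and a 0 there is weak evidence. Mitochondrial transcripts took 27.0 to 31.8% of the counts in P10 controls, 36.1 to 36.5% in P10 mutants, 34.9 to 45.7% in 7-month controls and 33.0 to 40.0% in 7-month mutants. The summed level of 9 erythroid markers was 7799 to 9437 CPM in P10 controls and 4510 to 6682 CPM in P10 mutants, without overlap, with a list median of -0.60 at P10. It was 9511 CPM in 7-month control 1, 2237 and 2637 CPM in the other controls of that age and 5018 to 5368 CPM in 7-month mutants, and the part of red cells in the results was not tested. The 12 heart muscle markers summed to 44690 to 55255 CPM in P10 controls and 56880 to 58802 CPM in P10 mutants, without overlap. At 7 months the order was reversed, at 70506.5 to 78251.5 CPM in controls and 54352 to 65105 CPM in mutants. Of these markers 3 were called, all negative (25% against 4.51% of all rows), with a list median of -0.47. No defining marker of heart muscle was absent, and the part of heart muscle content in the results was not tested. Hearts are mixed tissue, and fewer cells of a type and less RNA per cell cannot be told apart in what follows.

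The targeted gene, Jarid2 (chromosome 13, 44730774 to 44921643, GRCm38.p6), was read first as a test of the labels. Young hearts overlapped, with 32.4, 33.3 and 36.9 CPM in controls against 36.1, 41.7 and 33.4 CPM in mutants. In adult hearts every mutant, at 13.0, 10.6 and 11.7 CPM, stood below every control, at 17.3, 17.8 and 16.6 CPM. Its interaction was -0.65 (SE 0.15, adjusted p = 0.024). Without 7-month control 2, 7-month mutant 3, P10 control 1 or P10 mutant 2 the call was lost, and the adjusted p reached 0.0996. So at P10 this transcript cannot separate libraries by their genotype label. Which exons the floxed allele loses was not available to this work, and reads of the exons that remain still count toward the gene.

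Most of the calls rested on the 7-month hearts. When each effect was graded by its unadjusted p at 0.05, 1030 calls (70.8%) had an effect at 7 months only, 585 with a positive and 445 with a negative interaction. Effects of opposite sign at both ages accounted for 332 calls (22.8%), of which 138 were positive and 194 negative. Effects at P10 only accounted for 79 calls (5.43%), 23 positive and 56 negative. In 12 calls the effects had the same sign and were larger at 7 months, and in 1, the homeobox gene Irx2, the same sign and larger at P10. A difference is larger when its parts oppose each other, so the test itself favours the opposite pattern among the calls. By adjusted p, 1236 of the calls were also called at 7 months, 7 at P10 and 212 at neither age.

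**Figure D1:**
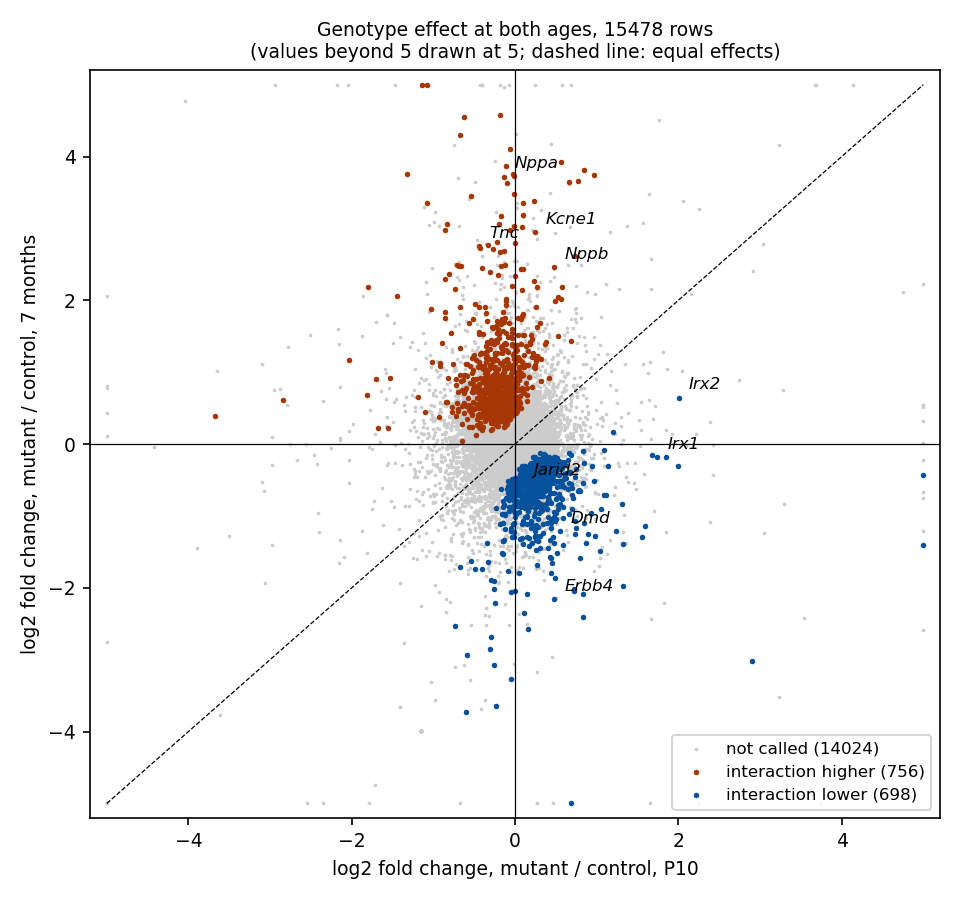
Log2 fold change of mutant over control at P10 (horizontal axis) and at 7 months (vertical axis) for 15478 gene rows, with values beyond 5 drawn at 5 and the dashed line marking equal effects. The 756 positive calls lie above the line and the 698 negative calls below it, and both sets spread along the vertical axis far more than along the horizontal one.

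The direction at P10 leaned against the direction at 7 months. Of 1522 rows that rose in 7-month mutants, 916 (60.2%) had a fold change below 0 at P10. The median over all rows tested was itself below 0 at P10 (-0.03), so most rows shared that sign. Of 1427 rows that fell in 7-month mutants, 798 (55.9%) had a fold change above 0 at P10, where 45.9% of all rows tested were above 0. These rows were chosen at 7 months alone, and the 2 effects share no library. With each P10 library left out in turn the counts were 846 to 964 and 745 to 871. In those fits 45.1% to 49.1% of all rows were above 0 at P10, the most without P10 control 1. Across all 15478 rows, which are not independent replicates, the rank correlation of the 2 effects was -0.141, and it was between -0.218 and -0.061 with each of the 12 libraries left out. The Pearson correlation was 0.0136.

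**Figure D2:**
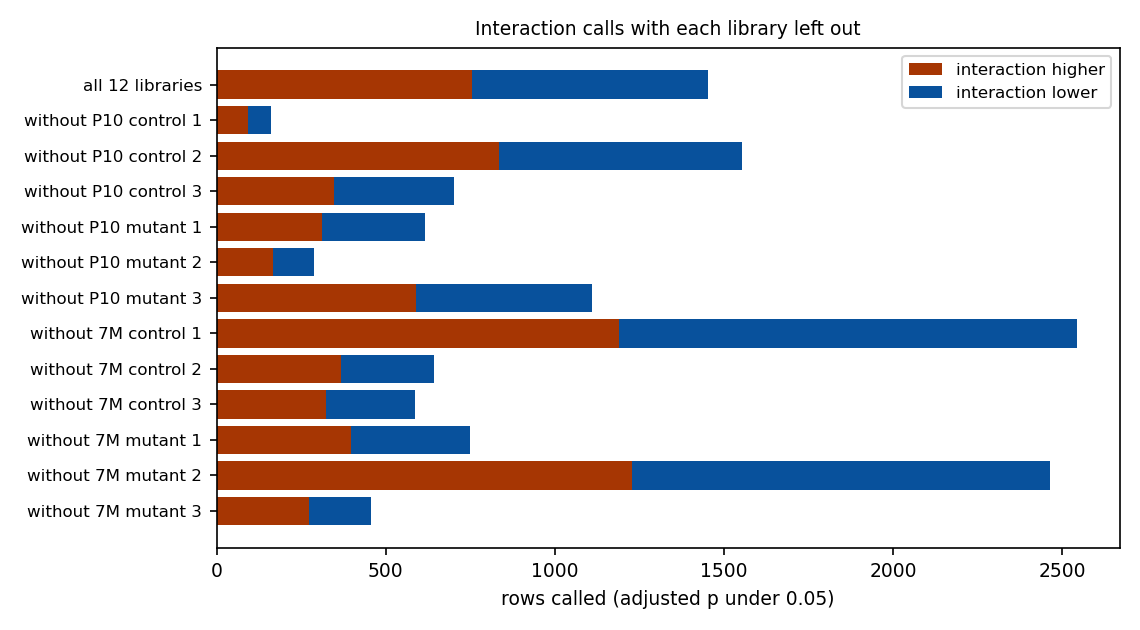
Number of rows with a called interaction (adjusted p under 0.05) in the fit of all 12 libraries and in the 12 fits that leave out 1 library each, with positive and negative calls stacked. The total is 1454 with all libraries and runs from 162 without P10 control 1 to 2543 without 7-month control 1.

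How many rows are called depends on single libraries. Without P10 control 1 there were 162 calls, without P10 mutant 2 there were 289, and without 7-month mutant 3 there were 456. Fewer calls, 588 to 748, were also made without 7-month control 2 or 3, 7-month mutant 1, P10 control 3 or P10 mutant 1. Without P10 mutant 3 there were 1109. The number was higher, at 2543, without 7-month control 1 and 2463 without 7-month mutant 2. Without the shallow P10 control 2 there were 1552 calls, 1297 of them shared with the fit of all 12. Called in the fit of all 12 and in every leave-out fit were 136 rows, 84 positive and 52 negative. Among calls that rose in 7-month mutants, mutant 2 lay nearest to the control mean in 543 of 674 (80.6%), and among those that fell in 442 of 562 (78.6%).

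The natriuretic peptides were raised in adult mutants, while the young groups overlapped. Nppa (chromosome 4, 148000722 to 148002074) encodes atrial natriuretic peptide, a hormone of stretched heart muscle. It stood at 246, 53.3 and 96.2 CPM in P10 controls and at 111, 101 and 201 CPM in P10 mutants, with overlap. At 7 months the controls held 147, 138 and 113 CPM and the mutants 2198, 857 and 2181 CPM, all above all controls. Its interaction was 3.85 (SE 0.74, adjusted p = 0.0199). Nppb, its neighbour on chromosome 4 (147985786 to 147987205) and the gene of brain natriuretic peptide, stood at 74.7, 23.3 and 54.1 CPM in P10 controls against 79.5, 65.7 and 106 CPM in P10 mutants. At 7 months it held 116, 179.7 and 188 CPM in controls and 1179, 579 and 899.9 CPM in mutants, again without overlap. The interaction of Nppb was 1.98 (SE 0.46, adjusted p = 0.0286). The Nppa call was lost without P10 control 1, P10 mutant 1 or 2, 7-month control 2 or 3 or 7-month mutant 3 (adjusted p up to 0.0638), and its value was 3.05 without P10 control 1. The Nppb call was also lost without P10 control 3 or 7-month mutant 1, and its adjusted p reached 0.104.

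Atrial muscle markers moved with Nppa in part of the hearts. Summed without Nppa, 10 such markers gave 86.6 to 571 CPM in P10 controls, 101.6 to 442 CPM in P10 mutants, 44.5 to 61.4 CPM in 7-month controls and 671, 98.0 and 93.1 CPM in 7-month mutants 1, 2 and 3. Myl7, the atrial light chain of myosin, was at 216 CPM in 7-month mutant 1 and at 9.31 and 14.1 CPM in mutants 2 and 3, against 3.06 to 10.1 CPM in the controls. The 3 mutants were thus unlike each other in atrial transcripts, while Nppa was raised in all of them. Of the 10 tested atrial markers, Nppa and Stard10 were called and both were positive (20% against 4.88% of all rows). Stard10, a lipid transfer protein, had 0.94 (adjusted p = 0.0424) and was called in 2 of the 12 leave-out fits, with adjusted p up to 0.183. The part of atrial tissue in the Nppa values was not tested.

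The Nppa promoter is shown as that of the classical stress gene of the heart, and the promoter of Tnc because this gene had the smallest adjusted p of the matrix genes. Both are the 250 bases before the start site in the RefSeq promoter table of GRCm38.p6, written 5′ to 3′ along the gene's own strand, and capitals would mark a motif match.
Nppa, chr4:148000472-148000721, plus strand: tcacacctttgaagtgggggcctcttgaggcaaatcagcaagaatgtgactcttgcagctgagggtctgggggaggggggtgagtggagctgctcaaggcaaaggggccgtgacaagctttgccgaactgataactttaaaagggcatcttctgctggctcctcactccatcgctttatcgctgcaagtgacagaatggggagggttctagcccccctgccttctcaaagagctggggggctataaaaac
Tnc, chr4:64047016-64047265, minus strand: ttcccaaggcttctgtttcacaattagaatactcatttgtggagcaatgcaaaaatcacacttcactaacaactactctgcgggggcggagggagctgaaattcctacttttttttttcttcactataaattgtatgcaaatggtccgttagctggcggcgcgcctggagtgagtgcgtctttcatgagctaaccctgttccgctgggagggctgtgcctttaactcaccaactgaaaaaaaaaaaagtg
Motifs searched on both strands were TTCNNGAA, TGATGNAA, CATTCC, TTATGNAA and TCAAGGTCA, and neither window holds any of them. Among all 27025 promoters of the table, windows of this length hold them in 7.10%, 3.53%, 12.6%, 3.23% and 0.366% of cases. The window of Nppb (chr4:147985650-147985899, plus strand), not printed here, holds 1 CATTCC match on the other strand. It begins 105 bases before the start site of the promoter table. That start site lies downstream of 147985786, where the gene span given above begins, so the match falls inside that span. The share of G and C is 54.4% for Nppa and 44.8% for Tnc, against a median of 52% over the table.

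Over a list of 17 tested heart stress genes, 7 were called and all of them were positive (41.2% against 4.88% of all rows). The median of the list was 1.98 for the interaction, 0.02 at P10 and 2.15 at 7 months. Among its members were Uchl1, an enzyme that removes ubiquitin, with an interaction of 1.05 (adjusted p = 0.0239), and Nmrk2, a kinase that makes a precursor of NAD, with 2.85 (0.024). Ankrd1, a titin-bound stress protein, lay higher in mutants at both ages. Young controls held 233, 213 and 338 CPM and young mutants 581, 631 and 739.7 CPM, followed by 1078, 1067 and 744 CPM in 7-month controls and 5227, 3428 and 4166 CPM in 7-month mutants. Its interaction of 0.88 did not pass the test (adjusted p = 0.0687), and Ankrd1 is named here after its values were seen. The beta myosin heavy chain Myh7, classed with the fetal program, had an interaction of 2.89 that did not pass (SE 1.48, adjusted p = 0.235). Its 7-month values were 227, 195 and 1051 CPM in controls and 3270.2, 718 and 1264 CPM in mutants, so that 7-month control 3 exceeded mutant 2. The list count ranged from 0 without P10 control 1 to 11 without 7-month mutant 2, and was 6 without P10 control 2. The call of Uchl1 was lost without 6 libraries and that of Nmrk2 without 5, P10 control 1 and P10 mutants 1 and 2 among them, with adjusted p up to 0.0964.

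**Figure D3:**
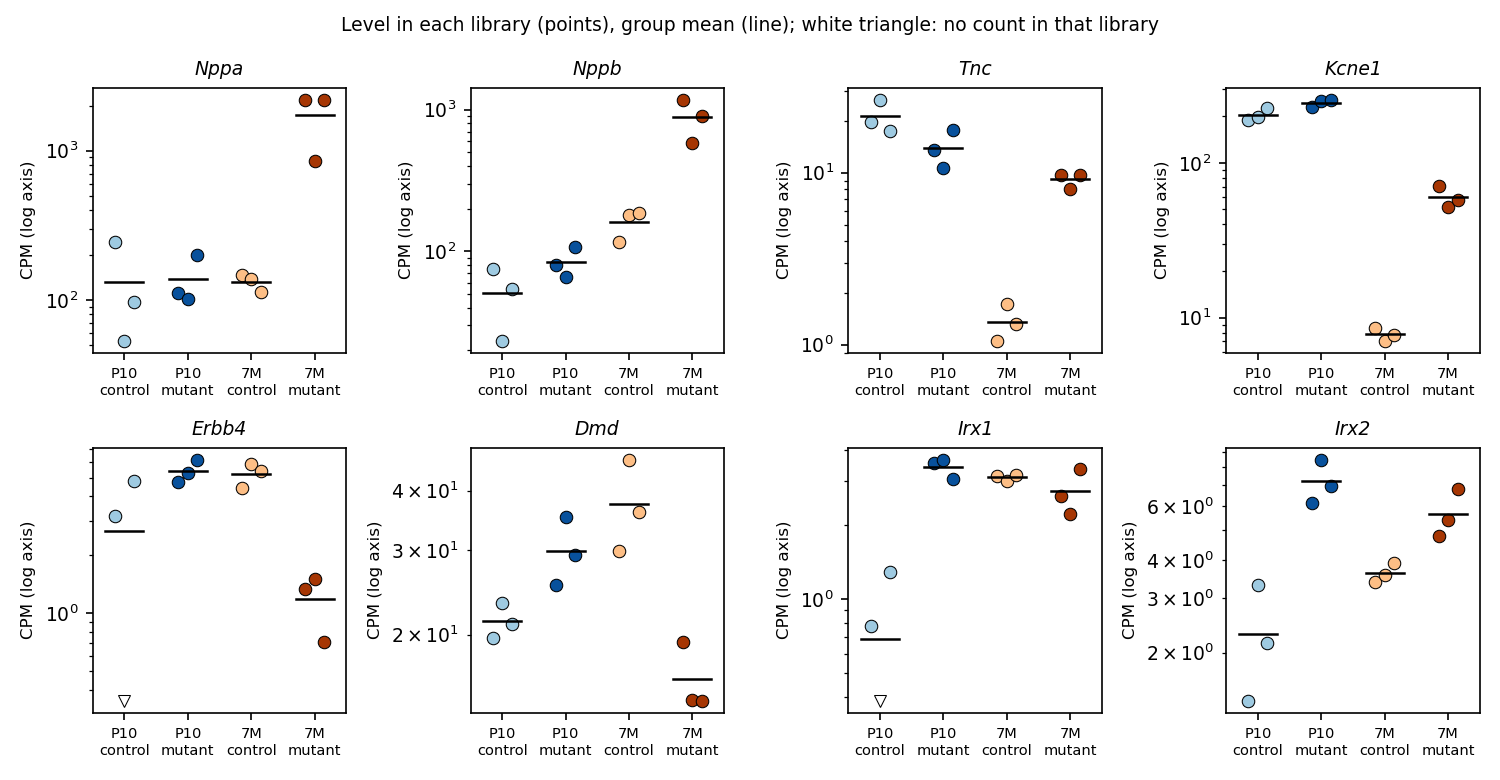
CPM (log axis) of 8 genes in each of the 12 libraries, grouped by age and genotype, with a line at each group mean and a white triangle where no read was counted (Erbb4 and Irx1 in P10 control 2). Nppa, Nppb, Tnc and Kcne1 are higher in 7-month mutants than in their controls, Erbb4 and Dmd are lower, and Irx1 and Irx2 differ most at P10.

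Kcne1 (chromosome 16, 92346001 to 92359468), a small subunit of the slow potassium channel, had the smallest adjusted p of all rows tested. Control hearts held 190.4, 196 and 227 CPM at P10 and 8.60, 7.08 and 7.70 CPM at 7 months. P10 mutants held 228, 249 and 256 CPM and 7-month mutants 71.0, 52.0 and 57.8 CPM. Mutants were above controls at both ages, by 0.25 on the log2 scale at P10 (adjusted p = 0.433) and by 2.95 at 7 months (adjusted p = 6.28e-08). The interaction was 2.70 (SE 0.18, adjusted p = 9.76e-06) and stayed between 2.57 and 2.80 with any library left out.

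Among the 15 largest positive interactions were genes of secreted factors. Nrg1, the neuregulin that signals to heart muscle through Erbb4, was at most 0.231 CPM at P10 and 0.194 to 0.294 CPM in 7-month controls, and 2.58, 1.08 and 2.17 CPM in 7-month mutants (interaction 3.89, adjusted p = 0.014). Gdf15, a stress hormone of the TGF-beta family, was at 12.5, 1.98 and 4.96 CPM in 7-month mutants and at 0.541 to 0.885 CPM in their controls (3.35, adjusted p = 0.0459). Sost, a secreted Wnt inhibitor best known from bone, was at 8.89, 2.16 and 2.17 CPM against 0.265 to 0.636 CPM (3.48, adjusted p = 0.0477). At P10 none of these 3 exceeded 2.49 CPM in either genotype. The Nrg1 call was lost without P10 control 1 (adjusted p 0.0584), and the value was 4.81 without P10 mutant 2. Sost was called in 3 and Gdf15 in 2 of the 12 leave-out fits, with adjusted p up to 0.119 and 0.23, and their values were 2.45 and 2.44 without 7-month mutant 1. With coding and non-coding rows summed Gdf15 did not pass (adjusted p = 0.0539).

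Matrix genes formed the next set of large positive values. Cilp, a cartilage matrix protein that is also made in scarred heart, held 9.26, 0 and 6.80 CPM in P10 controls, 9.77, 14.2 and 10.9 CPM in P10 mutants, 3.11, 4.29 and 3.41 CPM in 7-month controls and 84.7, 27.7 and 51.3 CPM in 7-month mutants (interaction 3.35, adjusted p = 0.0136). Mfap4, of the elastic fibre, held 133 to 177 CPM in every P10 heart, 5.95 to 8.29 CPM in 7-month controls and 109.6, 27.7 and 47.6 CPM in 7-month mutants (3.26, adjusted p = 0.018). Ltbp2, which binds fibrillin, stood at 44.4, 8.16 and 21.3 CPM in 7-month mutants and 1.49 to 2.59 CPM in controls (3.73, adjusted p = 0.034). The collagen chains Col11a1 (4.17, adjusted p = 0.0161) and Col9a2 (3.78, adjusted p = 0.0107) were also higher in 7-month mutants, at lower levels. Col11a1 rests on 3 counts in all 7-month controls together and 71 in the mutants, a ratio of 19.1 with a 95% counting interval of 6.28 to 94.9. For Col9a2, Mfap4, Ltbp2 and Col11a1, P10 levels in both genotypes were above those of the 7-month controls in every deep library. The Col9a2 call held with each library left out. Cilp and Col11a1 were lost without P10 control 1 (adjusted p up to 0.059), Mfap4 also without P10 mutant 2 (up to 0.0665), and Ltbp2 was called in 5 of 12 leave-out fits (up to 0.112). Without 7-month mutant 1 the values of Col11a1, Col9a2, Ltbp2 and Mfap4 were 3.56, 3.07, 2.98 and 2.55.

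The other large positive values belonged to unlike genes. Serpinb1c, a protease inhibitor, and Sprr1a, a cornified envelope protein induced by cardiac stress, were at most 0.415 CPM in all P10 hearts and 7-month controls and reached 0.879 to 2.64 CPM and 2.39 to 4.54 CPM in 7-month mutants (5.18 and 5.09, adjusted p = 0.00903 and 0.0116). Gcgr, the glucagon receptor, held 2.59, 3.33 and 1.86 CPM in P10 controls, 1.58, 1.03 and 2.03 CPM in P10 mutants, 0.309, 0.277 and 0.118 CPM in 7-month controls and 4.60, 1.22 and 2.06 CPM in 7-month mutants (4.0, adjusted p = 0.00943). Lman1l, a lectin of the secretory path, was at 6.25, 2.95 and 4.30 CPM in 7-month mutants and 0.235 to 0.618 CPM in their controls (3.26, adjusted p = 0.0202). Mmp16, a membrane-bound matrix protease, was 1.26, 0 and 2.83 CPM in P10 controls and 0.402 to 0.533 CPM in P10 mutants, and overlapped between genotypes at 7 months (3.20, adjusted p = 0.024). With the coding and non-coding rows of the symbol summed, the Mmp16 interaction was 1.27 and did not pass (adjusted p = 0.0813). Only the Gcgr call of these held with every library left out, and its value without 7-month mutant 1 was 3.32. Serpinb1c and Sprr1a were lost without P10 control 1 (adjusted p up to 0.0632), with Sprr1a at 5.94 without P10 mutant 3. Lman1l was lost without P10 control 1 or P10 mutant 2 (up to 0.267, values 2.12 and 3.91 without P10 controls 1 and 3), and Mmp16 was called in 5 of 12 leave-out fits (up to 0.0861, value 2.48 without P10 control 3).

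Metabolic enzymes were among the 15 largest negative interactions. Pfkfb1, a switch enzyme of glycolysis, stood at 1.99, 3.33 and 2.05 CPM in P10 controls, 23.7, 20.8 and 24.7 CPM in 7-month controls, and 1.53, 4.60 and 2.96 CPM in 7-month mutants (-2.34, adjusted p = 0.0136). Cbs, which makes cystathionine, and Gstm6, a glutathione transferase, had interactions of -2.85 (adjusted p = 0.0269) and -2.72 (adjusted p = 0.00697). Both stood higher in P10 mutants than in P10 controls and lower in 7-month mutants than in their controls, without overlap at either age. Levels were at most 2.07 CPM throughout. At P10, Cbs rested on 5 counts in controls and 24 in mutants, and Gstm6 on 27 and 105. Both had no read in P10 control 2, where a single read is 3.33 CPM, so that 0 is weak evidence of a separation. Their P10 effects did not pass the edgeR test (adjusted p = 0.349 and 0.23). Cyp26b1, which breaks down retinoic acid, was 3.99, 10.4 and 4.94 CPM in 7-month controls and 1.27, 2.30 and 0.988 CPM in mutants (-2.91, adjusted p = 0.0163). Gstm6 held with each library left out, with -3.40 without P10 control 3. Pfkfb1 was lost without P10 control 1 (adjusted p 0.0646), Cyp26b1 without P10 control 1 or 3 or P10 mutant 2 (up to 0.0725), and Cbs was called in 7 of 12 leave-out fits (up to 0.0945).

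Signalling and structural genes of muscle were also among the 15 largest negative values. Erbb4, the neuregulin receptor of heart muscle, held 3.17, 0 and 4.79 CPM in P10 controls, 4.77, 5.26 and 6.20 CPM in P10 mutants, 4.40, 5.89 and 5.41 CPM in 7-month controls and 1.33, 1.49 and 0.703 CPM in 7-month mutants. Its interaction was -2.64 (SE 0.40, adjusted p = 0.00543), opposite in sign to that of its ligand Nrg1. Chrm2, the muscarinic receptor that slows the heart, was 1.53, 3.33 and 0.717 CPM in P10 controls and 2.37 to 3.29 CPM in P10 mutants, then 2.99, 6.47 and 3.62 CPM in 7-month controls and 1.32 to 2.30 CPM in mutants (-2.44, adjusted p = 0.0176). Myot, myotilin of the Z-disc, was at most 2.03 CPM at P10, 24.2, 32.7 and 19.2 CPM in 7-month controls and 6.80, 4.51 and 6.54 CPM in mutants (-2.23, adjusted p = 0.00697). Klhl33 (-2.74, adjusted p = 0.0133) and the membrane protein gene Tmem150c (-2.54, adjusted p = 0.00834) also fell at 7 months without overlap. Erbb4, Myot, Klhl33 and Tmem150c held with each library left out, and Chrm2 was lost without P10 control 3 or P10 mutant 2 (adjusted p up to 0.0575).

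The remaining members of that set were Tmem56 (-2.54, adjusted p = 0.023), the channel subunit Cngb3 (-2.46, adjusted p = 0.0279), the transport adaptor Hook1 (-2.25, adjusted p = 0.0142), the lectin Clec18a (-2.14, adjusted p = 0.0423) and Ano4. In the first 4 all 7-month mutants were below all controls of that age. The call of Hook1 was lost without P10 control 1 alone, and those of Tmem56, Cngb3 and Clec18a without 4, 7 and 9 libraries, P10 control 1 among them (adjusted p up to 0.137). Ano4, of the anoctamin family, had the most negative value of the named genes, -9.79 (adjusted p = 0.000974), which is set by a group with no count. Its coding row had no count in young controls against 296 counts in young mutants, which makes it at least 62.7-fold higher there against a floor of 3 counts over the group. When its coding and non-coding rows were summed the interaction was -0.74 and did not pass (adjusted p = 0.106).

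**Figure D4:**
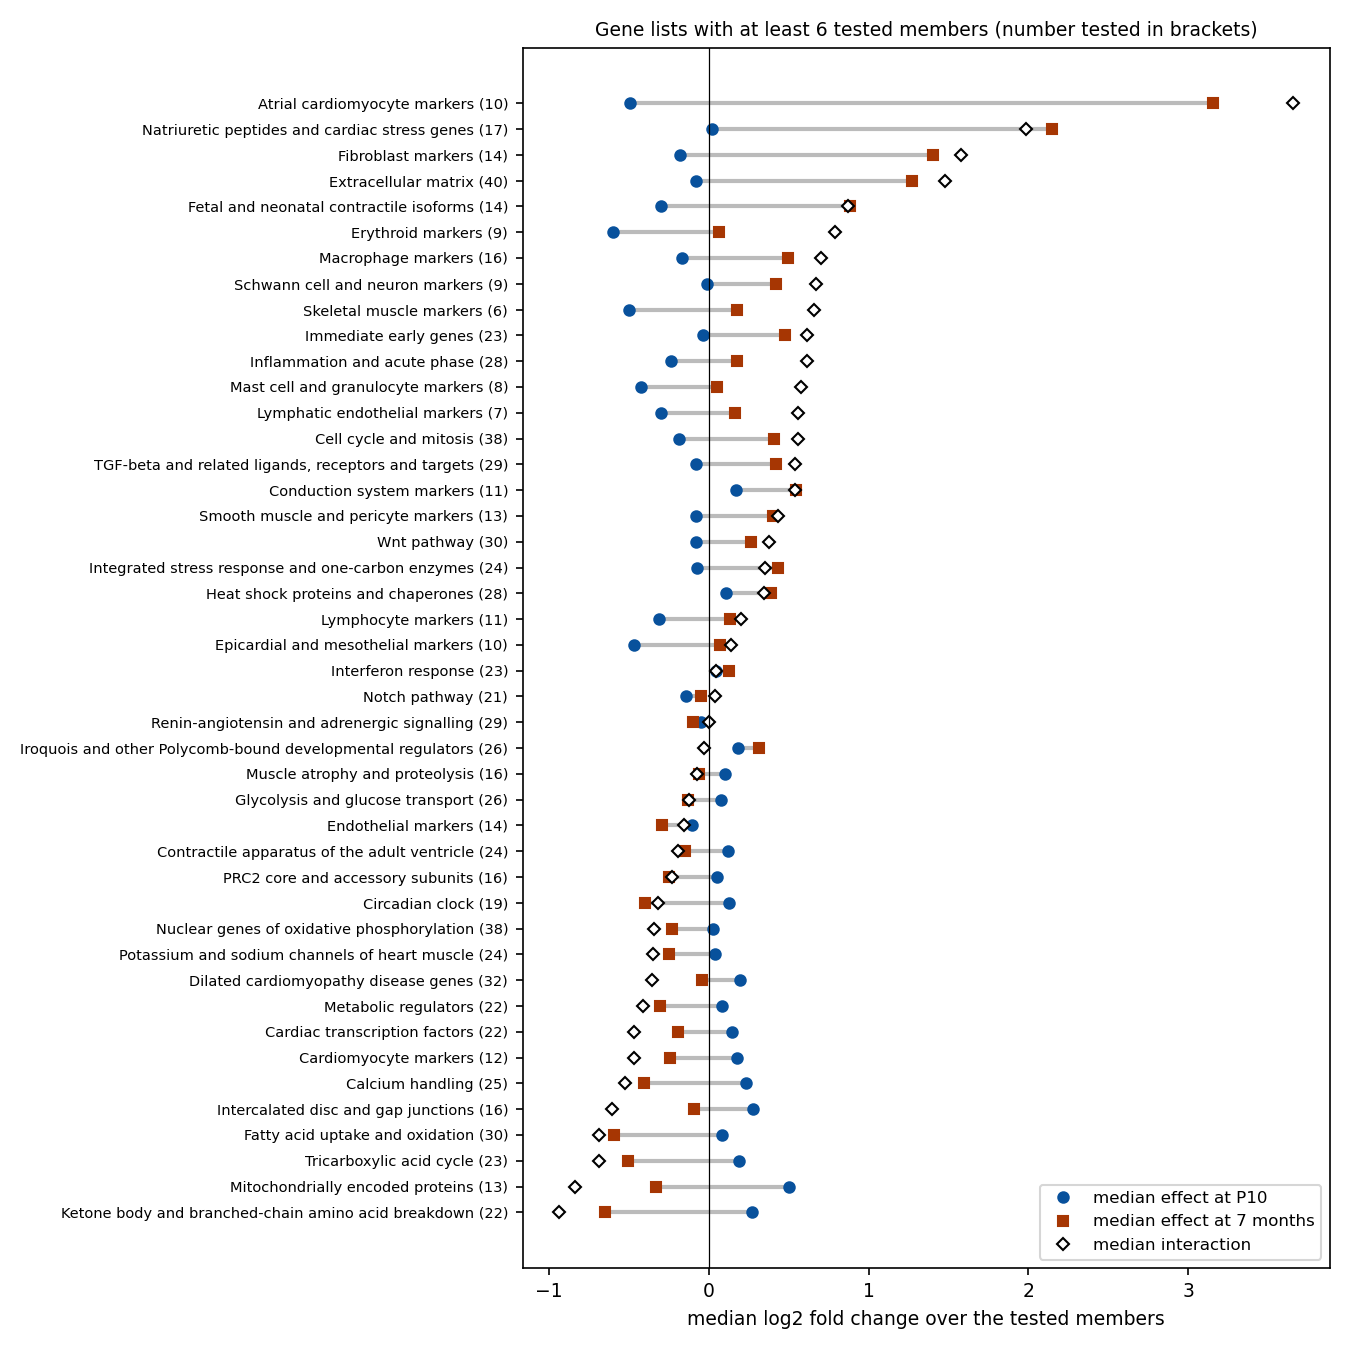
Median log2 fold change of mutant over control at P10 and at 7 months, and median interaction, for each gene list with at least 6 tested members. Matrix, fibroblast and stress genes lie on the positive side at 7 months and near 0 at P10, while mitochondrial metabolism lies below 0 at 7 months and slightly above 0 at P10.

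Matrix genes gave the largest block of positive calls among the lists. Of 40 tested genes of the extracellular matrix, 25 were called, all positive (62.5% against 4.88% of all rows). Of the 40, 39 had an interaction above 0. The median was 1.48 for the interaction, -0.08 at P10 and 1.27 at 7 months. Of the calls, 9 held in every leave-out fit. Tnc (chromosome 4, 63959785 to 64047015), the adhesion modulator tenascin C, stood at 19.8, 26.6 and 17.4 CPM in P10 controls against 13.5, 10.7 and 17.7 CPM in P10 mutants. In 7-month hearts it held 1.06, 1.71 and 1.32 CPM in controls and 9.76, 8.05 and 9.75 CPM in mutants, and these groups did not overlap. Its interaction was 3.20 (SE 0.29, adjusted p = 0.000243). Timp1, the inhibitor of matrix proteases, held 12.7, 3.33 and 8.70 CPM in P10 controls, 9.24, 10.3 and 11.5 CPM in P10 mutants, 5.53, 4.84 and 3.23 CPM in 7-month controls and 44.1, 24.9 and 43.1 CPM in 7-month mutants (3.05, adjusted p = 0.00376). The list count was 9 without P10 control 1, 23 without P10 control 2 and 29 without 7-month mutant 2.

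Proteoglycans and matrix enzymes were higher in 7-month mutants too. Bgn, the small proteoglycan biglycan, held 179, 201 and 176 CPM in 7-month controls and 795, 379 and 594 CPM in mutants, while P10 levels of 206 to 266 CPM overlapped (1.83, adjusted p = 0.0072). Fbln2, a basement membrane protein, held 64.7, 64.6 and 54.8 CPM in 7-month controls and 185, 115 and 141 CPM in mutants (1.51, adjusted p = 0.00473). Mmp2, a gelatinase, rose from 54.7, 67.3 and 69.8 to 121, 113 and 126 CPM (0.98, adjusted p = 0.00543). Adamts2, which trims procollagen, rose from 15.2, 17.1 and 15 to 51.0, 28.6 and 38.2 CPM (1.46, adjusted p = 0.00834). In all 4 the 7-month groups did not overlap, and each call held with any library left out.

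Among 14 tested fibroblast markers 9 were called, all positive (64.3% against 4.88% of all rows). The median was 1.58 for the interaction, -0.18 at P10 and 1.40 at 7 months. Mfap5, of the elastic microfibril, held 84.9, 79.9 and 78.8 CPM in P10 controls, 66.8, 70.8 and 88.1 CPM in P10 mutants, 16.1, 17.2 and 15.3 CPM in 7-month controls and 130.1, 54.1 and 90.0 CPM in 7-month mutants (2.61, adjusted p = 0.00569). Postn, periostin of activated fibroblasts, held 436 to 646 CPM at P10, 27.3, 37.7 and 29.3 CPM in 7-month controls and 378, 103 and 181 CPM in mutants (3.03, adjusted p = 0.0176). Pdgfrl, the secreted glycoprotein Fstl1, the collagen modifier Cthrc1 and the homeobox gene Meox1 had interactions of 1.93, 1.80, 1.76 and 1.92 (adjusted p of 0.00809 to 0.0167). The receptor Pdgfra, the transcription factor Tcf21 and the proteoglycan Dcn, which mark fibroblasts at rest, had -0.11, 0.45 and 0.10 (adjusted p = 0.773, 0.17 and 0.804), and were picked out after their values were seen. Summed over the list, levels were 4152 to 4677 CPM in P10 controls, 3796 to 4500 CPM in P10 mutants, 2452 to 3174 CPM in 7-month controls and 3766 to 4879 CPM in 7-month mutants. The count was 3 without P10 control 1 and 9 without P10 control 2. Cthrc1, Meox1 and Postn were lost without P10 control 1, the last 2 also without P10 mutant 2 (adjusted p up to 0.0711), and Postn was 2.41 without 7-month mutant 1.

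Growth factor genes that act on fibroblasts gave fewer calls. In the TGF-beta family 6 of 29 tested members were called, all positive (20.7% against 4.88% of all rows), with a median of 0.54. Fstl3, a secreted trap for activins, held 3.5, 9.99 and 3.71 CPM in P10 controls, 2.61, 3.13 and 4.11 CPM in P10 mutants, 2.78, 2.18 and 2.76 CPM in 7-month controls and 21.3, 7.35 and 14.5 CPM in 7-month mutants (2.66, adjusted p = 0.0134). Gdf6, a ligand, went from 0.592 to 0.940 CPM in 7-month controls to 6.13, 2.61 and 3.36 CPM in mutants (2.35, adjusted p = 0.015). Id2, a target gene, had 0.72 (adjusted p = 0.0155), the latent binding protein Ltbp3 1.1 (0.0341) and the ligand Tgfb3 0.97 (0.0404). In the Wnt pathway 4 of 30 were positive and 1 negative (16.7% against 9.39% of all rows), with a median of 0.37. The inhibitor Sfrp1 rose in 7-month mutants from 17.7, 23.6 and 23.7 to 45.2, 37.4 and 42.5 CPM (1.17, adjusted p = 0.00732), and the receptor Fzd2 (1.63, 0.0157) and the inhibitors Dkk2 (2.91, 0.0257) and Frzb (1.48, 0.0328) were also positive. The receptor Fzd4 was negative (-0.99, adjusted p = 0.0354). Of all these only the Sfrp1 call held with each library left out, and the others had adjusted p up to 0.126, with Dkk2 at 2.27 without 7-month mutant 1. Without P10 control 1 no TGF-beta member and 1 Wnt member was positive, and without P10 control 2 it was 5 and 4.

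Macrophage markers and chemokines leaned positive with smaller values. Of 16 macrophage markers 6 were called, all positive (37.5% against 4.88% of all rows). The median was 0.70 for the interaction, -0.17 at P10 and 0.50 at 7 months. C1qb, a chain of complement C1q, held 23.8, 13.3 and 22.0 CPM in P10 controls, 22.8, 17.6 and 15.5 CPM in P10 mutants, 71.5, 61.8 and 47.7 CPM in 7-month controls and 116, 111 and 126 CPM in 7-month mutants (1.24, adjusted p = 0.0116). C1qc, C1qa, Lyz2 (lysozyme), Csf1r (the growth factor receptor of macrophages) and Ms4a7 had interactions of 1.04, 1.08, 0.99, 0.73 and 0.99, with adjusted p of 0.0134 to 0.041. The summed level of the list was 130 to 181 CPM in P10 controls, 139 to 178 CPM in P10 mutants, 394 to 513 CPM in 7-month controls and 765 to 847 CPM in 7-month mutants, so that adult mutants lay above adult controls and these above the young hearts. Of 28 inflammation genes 5 were positive and 1 negative (21.4% against 9.39% of all rows), with a median of 0.61. The chemokine gene Ccl9 stood lower in P10 mutants (1.58 to 1.87 against 2.29 to 3.33 CPM) and higher in 7-month mutants (17.7 to 22.1 against 7.56 to 12.1 CPM), with an interaction of 1.54 (adjusted p = 0.00834). Ccl6 (1.34, 0.0191), Socs3 (1.00, 0.0383), Ccl2 (1.03, 0.0413) and complement C4b (1.18, 0.0481) were positive, and Cxcl12, a chemokine of stromal and endothelial cells, was negative (-0.63, adjusted p = 0.0167). All 6 macrophage calls and all 6 inflammation calls were lost without P10 control 1, with adjusted p up to 0.157 with any library left out. The macrophage count was 7 without P10 control 2.

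Proliferation genes differed in a similar way. Of 38 cell cycle genes 10 were called, all positive (26.3% against 4.88% of all rows), and 32 of 38 were above 0. The median was 0.56 for the interaction, -0.19 at P10 and 0.41 at 7 months. Cdkn1a, which inhibits rather than drives division, held 25.5, 36.6 and 35.5 CPM in P10 controls, 31.0, 28.3 and 30.8 CPM in P10 mutants, 12.9, 17.9 and 14.6 CPM in 7-month controls and 54.2, 31.3 and 41.4 CPM in 7-month mutants (1.52, adjusted p = 0.0116). The mitotic genes Cdc20 (1.16), Birc5 (1.39), Cenpe (1.26), Cdk1 (1.31) and Ccna2 (1.05) had adjusted p of 0.0239 to 0.0393. Cdk1, the kinase that starts mitosis, was at 16.6 to 33.4 CPM at P10, 1.90, 2.65 and 2.41 CPM in 7-month controls and 6.45, 4.21 and 4.50 CPM in mutants, well below the young heart in both genotypes. Only the Cdkn1a call held with each library left out. The 5 mitotic genes had adjusted p up to 0.132. The list count was 1 without P10 control 1, P10 mutant 1 or 2, 7-month control 3 or 7-month mutant 3, 7 without P10 control 2 and 13 without P10 mutant 3.

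On the negative side were genes of the tricarboxylic acid cycle. Of 23 tested genes of the cycle and of pyruvate entry, 17 were called, all negative (73.9% against 4.51% of all rows), and none of the 23 was above 0. The median was -0.69 for the interaction, 0.19 at P10 and -0.51 at 7 months, so that P10 mutants stood slightly above and 7-month mutants below their controls. Idh3b, a subunit of isocitrate dehydrogenase, gave P10 control values of 308, 403 and 315 CPM and 409.9, 438 and 421 CPM in P10 mutants, without overlap. It held 602, 670.3 and 647 CPM in 7-month controls and 361, 517 and 386 CPM in mutants, again without overlap but the other way (-0.95, adjusted p = 0.0154). Mdh1, the cytosolic malate dehydrogenase, held 1094, 1278 and 1149.8 CPM in P10 controls, 1485, 1603 and 1531 CPM in P10 mutants, 2190.4, 2314 and 2351 CPM in 7-month controls and 1358, 1954 and 1509 CPM in 7-month mutants (-0.90, adjusted p = 0.0143). Fumarase Fh1 (-0.81, adjusted p = 0.0157) had the same crossing, as did Pdha1 of pyruvate dehydrogenase (-0.90, adjusted p = 0.0187). For the subunits of succinate-CoA ligase the interactions were -0.86 for Suclg2 (adjusted p = 0.0141) and -1.08 for Sucla2 (adjusted p = 0.0174). None of the 17 calls held without P10 control 1, and 15 genes were called without P10 control 2 and 20 without 7-month mutant 2.

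**Figure D5:**
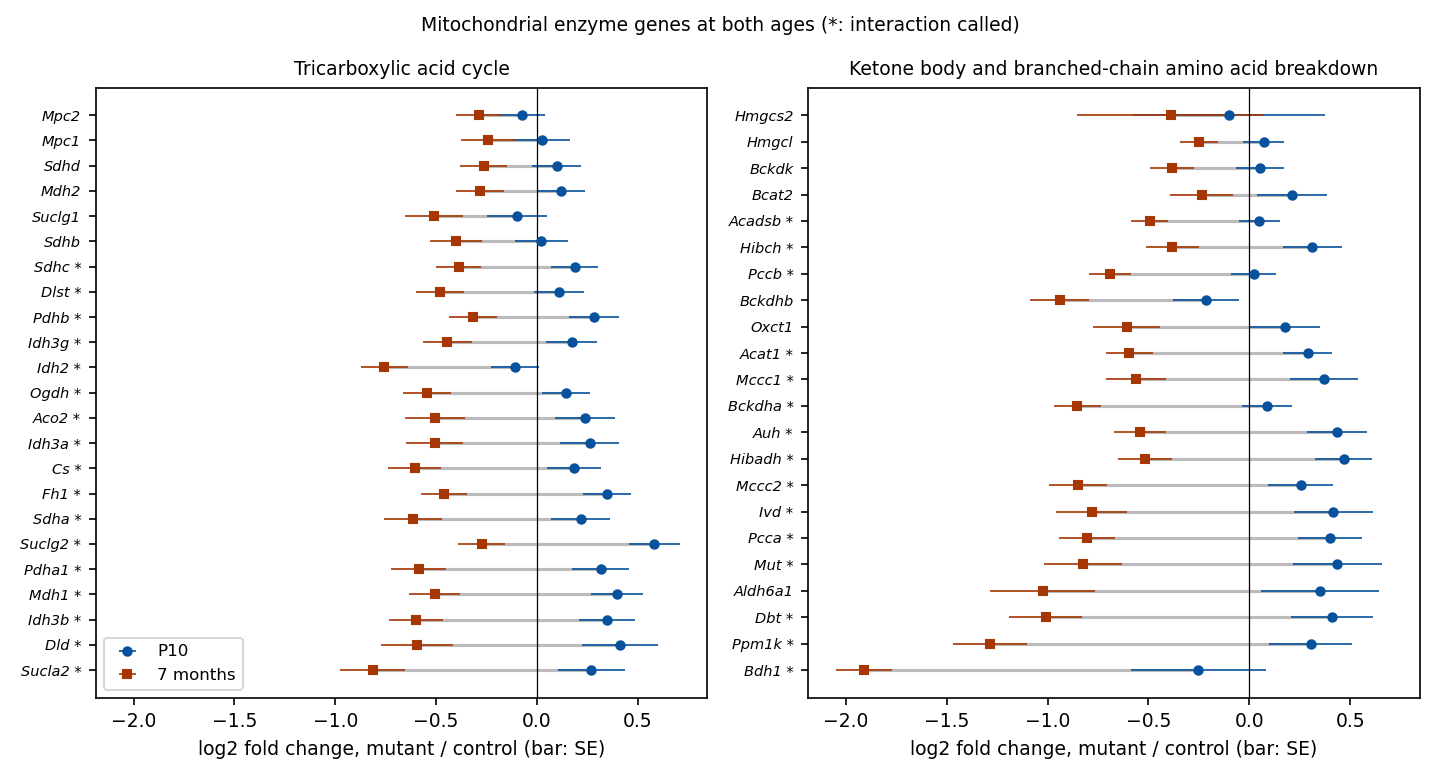
Log2 fold change of mutant over control with its standard error at P10 and at 7 months for genes of the tricarboxylic acid cycle and of ketone body and branched-chain amino acid breakdown, with an asterisk where the interaction was called. At P10, 20 of 23 and 19 of 22 genes lie above 0, at 7 months none does, and 17 of 23 and 15 of 22 interactions were called.

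Ketone body and branched-chain amino acid breakdown had the lowest median interaction of the lists with 20 or more tested members. Of 22 genes 15 were called, all negative (68.2% against 4.51% of all rows). The median was -0.94 for the interaction, 0.27 at P10 and -0.65 at 7 months. Pcca, of propionyl-CoA carboxylase, held 19.9, 20 and 15.6 CPM in P10 controls, 23.6, 24.5 and 22.3 CPM in P10 mutants, 65.5, 78.0 and 70.4 CPM in 7-month controls and 33.5, 51.4 and 37.5 CPM in 7-month mutants (-1.20, adjusted p = 0.00905). Ppm1k, the phosphatase that activates the branched-chain ketoacid dehydrogenase, stood at 18.0, 23.3 and 19.7 CPM in P10 controls, 109.8, 125 and 119 CPM in 7-month controls, and 34.5, 66.6 and 44.2 CPM in 7-month mutants (-1.59, adjusted p = 0.0102). Bckdha, a subunit of that dehydrogenase, had -0.94 (adjusted p = 0.0102), Acat1 of ketone use -0.88 (0.0122), Mccc2 of leucine breakdown -1.1 (0.0135) and Hibadh of valine breakdown -0.98 (0.0138). Bdh1, the first enzyme of ketone use, was under 0.52 CPM in every P10 heart, 119, 92.9 and 113 CPM in 7-month controls and 30.3, 25.2 and 31.0 CPM in mutants (-1.66, adjusted p = 0.0187, named after its values were seen). Pcca, Bckdha, Acat1 and Mccc2 held with each library left out. Ppm1k and Hibadh were lost without P10 control 1, and Bdh1 also without P10 control 3 or P10 mutant 3 (adjusted p up to 0.0666). The list count was 4 without P10 control 1, 16 without P10 control 2 and 20 without 7-month mutant 2.

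Fatty acid uptake and oxidation had negative calls as well. Of 30 tested genes 11 were called, all negative (36.7% against 4.51% of all rows), and none was above 0. The median was -0.69 for the interaction, 0.08 at P10 and -0.60 at 7 months. Etfdh, which passes electrons from fatty acid oxidation to the respiratory chain, held 177, 206 and 195 CPM in P10 controls, 235, 271 and 193 CPM in P10 mutants, 462, 644 and 553 CPM in 7-month controls and 230.2, 359.8 and 259 CPM in 7-month mutants (-1.26, adjusted p = 0.0144). Its partner Etfa had -1.13 (adjusted p = 0.0136) and the dehydrogenases Hadh, Acadl and Acadm -1.01, -0.70 and -1.09 (adjusted p of 0.0159 to 0.0219). Eci2, an isomerase, had -0.81 (adjusted p = 0.0236) and -0.56 with coding and non-coding rows summed, which did not pass (adjusted p = 0.0569). All 6 calls named here were lost without P10 control 1 (adjusted p up to 0.0858), and the list count ranged from 0 there to 23 without 7-month mutant 2, with 14 without P10 control 2.

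Genes of the respiratory chain were called in part. Of 38 nuclear genes of oxidative phosphorylation 5 were called, all negative (13.2% against 4.51% of all rows). These were Ndufs1 (-1.14), Uqcrc2 (-0.88), Ndufa9 (-0.57), Atp5c1 (-0.60) and Ndufa10 (-0.68), with a list median of -0.35. Ndufs1, the largest subunit of complex I, held 194, 279.6 and 197 CPM in P10 controls, 275, 309 and 255 CPM in P10 mutants, 472, 571 and 549 CPM in 7-month controls and 260.0, 408 and 286 CPM in 7-month mutants (adjusted p = 0.0173). Of the 13 mitochondrially encoded messages 3 were called, all negative (23.1% against 4.51% of all rows). The called messages mt-Nd6, mt-Atp6 and mt-Nd4 had -1.12, -1.07 and -0.82 (adjusted p = 0.0187, 0.0322 and 0.0395). Their P10 mutants were above the P10 controls without overlap. For mt-Nd6 the P10 controls held 4228, 4947 and 5789 CPM and the P10 mutants 6956, 7056 and 7393 CPM. At 7 months only mt-Nd6 had mutants below controls without overlap. Its 7-month controls held 5377, 7215 and 6519 CPM and its 7-month mutants 3343, 5324 and 3929 CPM. No call of either list held without P10 control 1, P10 mutant 2 or 7-month mutant 3. Without P10 control 2 there were 2 and 1 calls, without 7-month mutant 2 there were 15 and 6, and without 7-month control 1 there were 5 and 11.

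Sugar metabolism and metabolic regulators were mixed or moderate. Of 26 glycolysis and glucose transport genes 2 were positive and 7 negative (34.6% against 9.39% of all rows), with a median of -0.12. The phosphofructokinase of platelets, Pfkp, rose in 7-month mutants from 33.1, 38.3 and 39.1 to 88.0, 65.6 and 79.4 CPM (0.97, adjusted p = 0.0138). The insulin-responsive transporter Slc2a4 (-0.78, 0.0211), the lactate dehydrogenase of heart Ldhb (-0.77, 0.0244) and the kinase Pdk2 (-0.68, 0.0299) were negative, while Pgam1 was positive (0.66, 0.031). Of 22 metabolic regulators 7 were called, all negative (31.8% against 4.51% of all rows), with a median of -0.42. Klf15, a factor that controls fuel use, held 4.14, 3.33 and 4.22 CPM in P10 controls, 5.95, 5.39 and 7.04 CPM in P10 mutants, 29.2, 19.9 and 22.6 CPM in 7-month controls and 12.9, 17.6 and 9.73 CPM in 7-month mutants (-1.39, adjusted p = 0.0183). The nuclear receptors Esrrb (-0.78, 0.0236) and Esrrg (-1.45, 0.0351), the factor Gabpa (-0.75, 0.0239), the kinase subunit Prkaa2 (-0.89, 0.0282) and the muscle factor Perm1 (-0.58, 0.0394) were negative too. For Esrrg and Prkaa2 the mutants were above controls at P10 without overlap and overlapped with them at 7 months. Each of these calls was lost without at least 2 libraries except Pfkp, lost without P10 control 1 (adjusted p 0.0644), and the others had adjusted p up to 0.144. The regulator count ran from 0 without P10 control 1 to 11 without 7-month mutant 2.

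Calcium handling genes were called in the negative direction. Of 25 tested genes 8 were called, all negative (32% against 4.51% of all rows). The median was -0.53 for the interaction, 0.23 at P10 and -0.41 at 7 months. Slc8a1, the sodium-calcium exchanger, held 105, 117 and 125 CPM in P10 controls, 162, 189 and 181 CPM in P10 mutants, 178, 248 and 221 CPM in 7-month controls and 157, 186 and 146 CPM in 7-month mutants (-1.03, adjusted p = 0.0109). Its P10 groups did not overlap and its 7-month groups did. Trdn, triadin of the calcium release unit, stood at 97.1, 96.5 and 84.5 CPM in P10 controls against 109, 122 and 107 CPM in P10 mutants, then 164, 193 and 180.2 CPM and 115, 141 and 134 CPM at 7 months (-0.77, adjusted p = 0.0136). The release channel Ryr2 (-0.97, 0.0304), the pump Atp2a2 (-0.97, 0.0318), the binding protein Hrc (-0.86, 0.024) and the channel subunit Cacna2d1 (-1.14, 0.0324) were negative as well. The Trdn call held with each library left out, and Slc8a1 was lost without P10 control 1 (adjusted p 0.0514). The other 4 were each lost without 6 to 8 libraries (up to 0.121), and the list count was 1 without P10 control 1, 7 without P10 control 2 and 12 without 7-month control 1.

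Ion channel genes moved both ways. Of 24 potassium and sodium channel genes 3 were positive, among them Kcna5 and Kcne1 described above, and 4 were negative (29.2% against 9.39% of all rows). Kcna5, a pore of a voltage-gated channel, had 0.63 (adjusted p = 0.0299) and was lost without 8 libraries (up to 0.106). Kcnj11, the pore of the ATP-sensitive potassium channel, held 33.4, 33.3 and 36.5 CPM in P10 controls, 34.8, 34.4 and 34.4 CPM in P10 mutants, 77.4, 75.6 and 73.0 CPM in 7-month controls and 29.5, 36.0 and 26.7 CPM in 7-month mutants (-1.28, adjusted p = 0.00203). The adult controls stood above all other hearts. Kcnj3 (-1.37, 0.0134) and Kcnj2 (-1.84, 0.0221), pores of inward rectifier channels, fell at 7 months, and Abcc9, the regulatory partner of Kcnj11, stood higher in P10 mutants, at 179.7 to 206 against 111 to 139.8 CPM, and overlapped at 7 months (-0.86, adjusted p = 0.0223). Kcne1 and Kcnj11 held with each library left out. Kcnj3 was lost without P10 control 1 (adjusted p 0.0514), Kcnj2 without 5 libraries and Abcc9 without 4 (up to 0.0917).

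Genes of the intercalated disc, which joins heart muscle cells end to end, gave 6 negative calls and 1 positive call among 16 tested (43.8% against 9.39% of all rows), with a median of -0.60 for the interaction, 0.28 at P10 and -0.09 at 7 months. Ctnna3, the alpha catenin of heart and testis, held 10.6, 13.3 and 11.5 CPM in P10 controls, 12, 13.8 and 13.8 CPM in P10 mutants, 9.14, 12.3 and 11.1 CPM in 7-month controls and 4.98, 4.87 and 3.38 CPM in 7-month mutants (-1.54, adjusted p = 0.0051). Dsg2, a desmosomal cadherin, held 60.1, 72.2 and 62.7 CPM in 7-month controls and 30.6, 47.4 and 33.7 CPM in mutants (-1.08, adjusted p = 0.0136). The linker Tjp1 (-1.0, 0.0242), the cadherin Dsc2 (-1.14, 0.0243) and desmoplakin Dsp (-1.01, 0.033) were negative, and Gja5, a connexin of atria and conduction fibres, was positive (1.11, adjusted p = 0.0202). Ctnna3 held with each library left out. Dsg2 was lost without P10 control 1 (adjusted p 0.0624), Gja5 without 3 libraries, Tjp1 without 5, Dsc2 without 7 and Dsp without 8 (up to 0.102). Negative calls numbered 1 without P10 control 1 and 9 without 7-month control 1.

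Sarcomere genes gave few calls. Of 24 contractile genes of the adult ventricle 2 were called, both negative (8.33% against 4.51% of all rows). These were Myh6 and the myosin kinase gene Mylk3, and the list median was -0.20. Myh6, the alpha myosin heavy chain whose promoter drives the aMHC allele, gave young controls 15403, 10852 and 11999 CPM and young mutants 15064, 15373 and 14022 CPM, with overlap. At 7 months it held 18829, 16466 and 20746 CPM in controls and 9762, 12122 and 10313 CPM in mutants (-1.02, SE 0.21, adjusted p = 0.0156), and the call was lost without P10 mutant 2 (adjusted p 0.0522). Mylk3 had -0.83 (adjusted p = 0.0487) and was called in 3 of 12 leave-out fits, with adjusted p up to 0.163. Of 14 fetal and neonatal isoforms none was called by edgeR, while 5 had an unadjusted p under 0.05, DESeq2 called 2 and voom none. Leave-out fits called at most 1 in each direction, and the list median was 0.87. Among 32 disease genes of dilated cardiomyopathy, which overlap these lists, 6 were negative and none positive (18.8% against 4.51% of all rows). These were Dmd, Dsg2, Myh6, Dsp, the calcium pump inhibitor Pln (-0.90, adjusted p = 0.0401) and the splicing factor Rbm20 (-0.52, adjusted p = 0.045), the last 2 lost without most single libraries (up to 0.114). The count was 2 without P10 control 1 or P10 mutant 2, 4 without P10 control 2 and 10 without 7-month mutant 2.

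Heart transcription factors also leaned negative. Of 22 tested, 5 were called, all negative (22.7% against 4.51% of all rows). The median was -0.47 for the interaction, 0.14 at P10 and -0.19 at 7 months. Besides Klf15, Esrrb and Esrrg these were Mef2a (-0.75, adjusted p = 0.0356) and Tbx5 (-0.57, adjusted p = 0.0456). Tbx5, a T-box factor of heart formation, held 7.16, 6.66 and 8.35 CPM in P10 controls, 9.54, 9.14 and 10.1 CPM in P10 mutants, 9.65, 10.1 and 10.5 CPM in 7-month controls and 7.82, 9.40 and 8.06 CPM in 7-month mutants, so that neither age overlapped and the directions opposed each other. Mef2a was called in 4 and Tbx5 in 3 of 12 leave-out fits (adjusted p up to 0.185). The list count was 0 without P10 control 1 and 5 without P10 control 2.

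Irx1 and Irx2 had the larger difference in the young heart. They are Iroquois homeobox genes, regulators that Polycomb silences in many tissues, and both lie on chromosome 13 at 71958232 to 71963723 and 72624430 to 72634196. Irx1 stood at 0.776, 0 and 1.29 CPM in P10 controls against 3.54, 3.66 and 3.04 CPM in P10 mutants, without overlap. In 7-month controls it held 3.14, 2.99 and 3.18 CPM and in mutants 2.60, 2.21 and 3.36 CPM, with overlap. The interaction was -1.92 (SE 0.34, adjusted p = 0.00869). Irx2 stood at 1.40, 3.33 and 2.15 CPM in P10 controls against 6.13, 8.48 and 6.99 CPM in P10 mutants, and 3.40, 3.57 and 3.91 CPM in 7-month controls and 4.78, 5.41 and 6.81 CPM in mutants. The mutants were above the controls at both ages, by less at 7 months (-1.36, SE 0.29, adjusted p = 0.018). Irx1 was lost without P10 control 1 (adjusted p 0.0508) and Irx2 without P10 control 1 or P10 mutant 2 (up to 0.0856). In P10 control 2 the 3.33 CPM of Irx2 are 1 read.

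Polycomb genes gave few calls. Of 26 tested developmental regulators that Polycomb is known to bind, Irx1 and Irx2 were negative and Prrx2, a homeobox gene of mesenchyme, positive (11.5% against 9.39% of all rows), and the median was -0.03. Prrx2 held 0.0257, 0.166 and 0.0882 CPM in 7-month controls and 2.18, 0.473 and 0.922 CPM in mutants (2.99, adjusted p = 0.0454), and was called in 1 of 12 leave-out fits, with adjusted p up to 0.118 and a value of 2.22 without 7-month mutant 1 and of 3.69 without 7-month control 2. Of 16 subunits of PRC2, cofactors and opposing demethylases, Jarid2 and the cofactor gene Epop were negative and none positive (12.5% against 4.51% of all rows). Epop held 1.78, 0.802 and 1.47 CPM in 7-month controls and 0.222, 0.270 and 0.198 CPM in mutants (-1.81, adjusted p = 0.041, lost without 8 libraries, up to 0.11). The core subunits Ezh2, Eed and Suz12 had 0.39, -0.09 and -0.50 and did not pass (adjusted p = 0.195, 0.748 and 0.1).

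Besides Irx1 and Ano4, 8 genes were named for an effect at P10 only by unadjusted p. Lrig1, which restrains growth factor receptors, stood at 18.9, 20 and 20.8 CPM in P10 controls against 34.5, 39.9 and 31.9 CPM in P10 mutants, and 29.9, 28.2 and 25.9 against 24.1, 31.1 and 23.5 CPM at 7 months (-0.93, adjusted p = 0.0122). Dapk1, a death-associated kinase, stood at 17.3, 13.3 and 16.5 CPM in P10 controls against 11.6, 9.99 and 10.4 CPM in P10 mutants, and 25.3 to 30.1 CPM in all 7-month hearts (0.69, adjusted p = 0.0136). Both were lost without P10 control 1 (adjusted p up to 0.0624). Vwf and Ecscr, genes of endothelial cells, the transcription factor Brf1 and the chemokine Ccl24 had P10 fold changes below 0 and positive interactions of 0.80, 0.68, 0.61 and 1.31 (adjusted p of 0.0328 to 0.0379). Their P10 effects did not pass after adjustment (adjusted p of 0.225 to 0.285). Vwf overlapped at P10, while its 7-month mutants, at 68.0 to 78.8 CPM, all lay above the controls, at 52.0 to 67.2 CPM, and Ecscr overlapped at both ages. In Brf1 and Ccl24 the P10 groups did not overlap, with Ccl24 at 1.13 to 3.33 CPM in controls and 0.552 to 0.746 CPM in mutants. These 4 calls were each lost without 8 or 9 libraries (up to 0.156). Fam120b (-1.82, adjusted p = 0.00843) and Tmem41a (-1.17, adjusted p = 0.0169) stood higher in P10 mutants on their coding rows, but with coding and non-coding rows summed their interactions were 0.01 and -0.17 and did not pass (adjusted p = 0.987 and 0.549). Tmem41a was also lost without P10 control 1 or P10 mutant 2 (up to 0.0624).

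The 10 genes named for opposite signs at both ages, 5 in each direction by adjusted p, passed the test in the interaction and at 7 months but not at P10, where their adjusted p was 0.198 to 0.408. On the positive side, apart from Tnc, were Fcgr3, Gpx3, Bace2 and Mxra8. Fcgr3, an antibody receptor of macrophages, held 9.31, 16.6 and 8.64 CPM in P10 controls, 8.16, 6.95 and 7.16 CPM in P10 mutants, 19.4, 17.1 and 15.1 CPM in 7-month controls and 39.7, 34.4 and 42.6 CPM in 7-month mutants (1.48, adjusted p = 0.00276). Gpx3, the secreted glutathione peroxidase, held 224, 173 and 201 CPM in P10 controls, 172, 144 and 158 CPM in P10 mutants, 181, 179 and 203 CPM in 7-month controls and 377, 296 and 393 CPM in 7-month mutants (1.3, adjusted p = 0.00377). The protease Bace2 held 12.3, 13.3 and 13.1 CPM in P10 controls, 9.67, 7.95 and 9.09 CPM in P10 mutants, 6.95, 7.11 and 7.70 CPM in 7-month controls and 15, 10.6 and 13.1 CPM in 7-month mutants (1.35, adjusted p = 0.00473). Mxra8, a cell adhesion protein of the matrix, had 1.05 (adjusted p = 0.00531). In all 4, P10 mutants were below P10 controls and 7-month mutants above 7-month controls without overlap. All of these calls, and that of Tnc, held with each library left out.

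On the negative side were Ppp2r3a, Cd200, Dmd, Apool and Rnls. Dmd encodes dystrophin, which links the cytoskeleton of muscle to the matrix and is a cause of cardiomyopathy when lost. It held 19.7, 23.3 and 21.1 CPM in P10 controls, 25.4, 35.2 and 29.3 CPM in P10 mutants, 29.9, 46.5 and 36.0 CPM in 7-month controls and 19.3, 14.6 and 14.6 CPM in 7-month mutants (-1.76, SE 0.25, adjusted p = 0.00486). Ppp2r3a, a regulatory subunit of protein phosphatase 2A, held 129, 176 and 152 CPM in P10 controls, 179, 208 and 168 CPM in P10 mutants, 197, 218 and 189 CPM in 7-month controls and 76.7, 102 and 77.6 CPM in 7-month mutants (-1.58, adjusted p = 0.00258). Cd200, a membrane protein that quiets macrophages, had 23.7, 20 and 29.2 CPM in P10 controls, 31.4, 35.6 and 30.5 CPM in P10 mutants, 36.2, 47.1 and 39.8 CPM in 7-month controls and 23.6, 21.0 and 19.8 CPM in 7-month mutants (-1.25, adjusted p = 0.00478). Apool, of the inner mitochondrial membrane, had -0.89 (adjusted p = 0.0051) and the flavoprotein gene Rnls -1.19 (adjusted p = 0.00543). Except in Ppp2r3a at P10, groups did not overlap at either age in these 5 genes, and each call held with any library left out.

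Stress responses inside the cell gave scattered calls. Of 24 genes of the integrated stress response 5 were positive and 1 negative (25% against 9.39% of all rows), with a median of 0.35. Besides Gdf15, these were Psat1 of serine synthesis (0.96, adjusted p = 0.0219), the factors Atf4 (0.67, 0.0299), Nupr1 (1.88, 0.0327) and Ddit3 (1.11, 0.0485), and the negative Shmt2 (-0.42, 0.046). Of 28 chaperones 2 were positive and 2 negative (14.3% against 9.39% of all rows). Dnaja1, a cytosolic chaperone, held 94.9, 129.8 and 103 CPM in P10 controls, 104, 112 and 113 CPM in P10 mutants, 60.8, 68.0 and 78.0 CPM in 7-month controls and 342, 158 and 209 CPM in 7-month mutants (1.69, adjusted p = 0.0154). Hsp90aa1, also cytosolic, had 1.39 (adjusted p = 0.0485), and Hspd1 and Hspa9, chaperones of mitochondria, had -0.71 and -0.51 (adjusted p = 0.0157 and 0.0395). Of 16 genes of muscle atrophy and proteolysis 1 was positive and 2 were negative (18.8% against 9.39% of all rows). The median was -0.08. The positive one was the protease subunit gene Capn2 (0.55, adjusted p = 0.0331). Fbxo32, a ubiquitin ligase of muscle wasting, had -0.96 (adjusted p = 0.00768) and held with each library left out, and Trim63, with the same kind of role, had -0.88 (adjusted p = 0.0193). All other calls of this paragraph were lost without P10 control 1 and in some cases without up to 10 libraries, with adjusted p up to 0.23.

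Several lists gave no call by edgeR: the interferon response (23 tested), the circadian clock (19), immediate early genes (23) and the markers of lymphocytes, mast cells and granulocytes, red cells and fat cells (11, 8, 9 and 5). Their median interactions were 0.04, -0.32, 0.61, 0.20, 0.58, 0.79 and 0.56, the last being -0.71 with the 3 members that have a group at 0 set at their bound. At an unadjusted p under 0.05 there were 3, 4, 4, 3, 0, 1 and 1 genes. DESeq2 called 1 red cell marker, and voom called 1 clock gene, 1 immediate early gene and 1 fat cell marker. Leave-out fits called at most 1 interferon and 1 clock gene in each direction, up to 4 immediate early genes without 7-month mutant 2, 3 mast cell or granulocyte markers without 7-month control 3, and 6 higher and 1 lower red cell markers without 7-month control 1. Among 14 endothelial markers 1 was positive and 1 negative (14.3% against 9.39% of all rows). Vwf was positive, and Flt1, a receptor for vascular growth factor, negative (-0.66, adjusted p = 0.0488, called in 1 of 12 leave-out fits, up to 0.138).

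Called genes differed in length from the rest. The median span from start to end in the genome was 23.9 kb over all tested coding rows, 15.7 kb over positive calls and 42.8 kb over negative calls. The median level was 12, 14.7 and 25.4 CPM. Span and level differ together here, and neither difference was tested. The negative calls include the very long genes Dmd (chromosome X, 82814664 to 85205050) and Ctnna3 (chromosome 10, 63430098 to 65003667). Very long genes occur among the positive calls too, as with Nrg1 (chromosome 8, 31807452 to 32891609).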

How the data were processed

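RNA of 12 postnatal hearts was sequenced from stranded poly-A libraries, 2 lanes each. Per the file headers and the submitters' processing notes, the authors deposited RSEM estimated counts per gene (Bowtie 1.1.2, RSEM 1.3.0, GRCm38.p6), and the sources used here do not give the strand setting of the counting. Coding and non-coding transcripts of a symbol are separate rows, 25098 in all, and 585 symbols have both. Lanes were summed and estimated counts rounded. edgeR 4.0.16 in R 4.3.3 fitted all 12 libraries with 4 group means (TMM scaling, filterByExpr with a minimum count of 10, robust quasi-likelihood, 8 residual degrees of freedom), leaving out 9620 rows, and P10, 7-month and interaction contrasts were each adjusted by Benjamini-Hochberg. CPM are counts divided by the TMM-scaled library size. A call is an adjusted p under 0.05, and a call is lost where a fit without 1 library gives a larger one. The labels number the hearts within each group, so each library is taken to be a separate heart, and they say no more about the animals. The p-values cover only variation among these libraries.

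Named genes were called coding rows with a mean of at least 1 CPM in a group and no predicted or clone name: the 15 largest in each direction, the 5 smallest adjusted p in each direction among those with a P10 effect only and among those with opposite signs, Jarid2, Nppa, Nppb, Myh6, Myh7, Irx1 and Irx2, and up to 6 members of each list, called ones first. Some genes that meet this rule are not reported here. Members and lists were chosen with earlier results of these data known. Alternatives were DESeq2 1.42.0, limma-voom 3.58.1, relative log expression scaling, other filters, no mitochondrial rows, non-robust dispersions, summed rows, a replicate block and each library left out. The scripts were tested on simulated data. Symbols were matched to RefSeq for coordinates and promoters, and 15437 tested rows matched.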

Additional observations from a re-analysis of the deposited data

Results flagged for a closer look

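The 1454 interaction calls are themselves tested differences between the ages in the effect of the mutant genotype. Repeated here with their interaction values are the genes named for opposite signs at both ages. Also repeated are the called genes among those named whatever their p (Jarid2, Nppa, Nppb, Myh6, Irx1 and Irx2). More positive at 7 months were Nppa (3.85), Tnc (3.20), Nppb (1.98), Fcgr3 (1.48), Bace2 (1.35), Gpx3 (1.3) and Mxra8 (1.05). More negative were Irx1 (-1.92), Dmd (-1.76), Ppp2r3a (-1.58), Irx2 (-1.36), Cd200 (-1.25), Rnls (-1.19), Myh6 (-1.02), Apool (-0.89) and Jarid2 (-0.65). Groups of 3 libraries are too small for a test of single outlying samples.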

How the results depend on the processing

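With each library left out in turn the calls ranged from 162 to 2543, those with a positive interaction from 94 to 1228 and those with a negative one from 68 to 1352. Calls with an effect at 7 months only ranged from 131 to 1668, at P10 only from 3 to 207 and with opposite signs from 28 to 647. The lowest of all these came without P10 control 1 and the highest without 7-month control 1 or 7-month mutant 2, and the cause was not tested. DESeq2 called 459 rows with a negative interaction, with 2106 adjusted p-values not given, so that fewer rows were tested. Calls in all were 994 with DESeq2, 1875 with voom, 1471 with relative log expression scaling and 1262 with no filter. Fam120b turned from -1.82 to 0.0059 when its coding and non-coding rows were summed (adjusted p = 0.987). Of the 54 named genes 30 were no longer called without P10 control 1, 22 without P10 mutant 2 and none without 7-month mutant 2. Between groups, 18 correlations of same-numbered deviations lay between -0.0146 and 0.133. Differently numbered libraries were not correlated, so these values cannot decide whether replicate numbers pair the libraries. A fit with the replicate block called 1531 rows, 1257 of them shared with the main 1454. P10 control 2 limits the P10 values of low genes.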
